A study of Mus musculus with 6 samples.

Results

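Matricellular proteins are secreted proteins that bind collagens, growth factors and cell receptors in the extracellular matrix without being its main load-bearing fibres. In adult skin several of them are scarce, and they accumulate in the dermis below a wounded or inflamed epidermis, where fibroblasts and keratinocytes make them. They act mainly through integrins, CD36, CD44 and CD47 on the cell surface, and several of them bind or release transforming growth factor beta. The 8 genes described here are Tnc and Tnxb (tenascins C and XB), Thbs1 and Thbs2 (thrombospondins), Postn (periostin), Sparc (osteonectin), Spp1 (osteopontin) and Fn1 (fibronectin). They were picked by symbol from the 19309 genes of the deposited expression table, which holds each of them once, and all 8 passed the low-count filter that left 15109 genes for testing.

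Both cheeks of 3 C57BL/6 mice, 6 to 8 weeks old and housed free of specific pathogens, were sequenced, giving 6 libraries of shaved cheek tissue. In the AEW group (n = 3) the right cheek was wiped for 30 s with equal volumes of acetone and ether and then for 30 s with distilled water, which strips surface lipids and leaves dry, itching skin. In the vehicle group (n = 3) the left cheek of the same mice was wiped with distilled water for 60 s. Wiping was done every morning and late afternoon over 12 days, and the tissue was collected on the last of these. The side of the face cannot be told apart from the treatment, neither group is untouched skin, and the labels name no transgene and no sex. Libraries held 19120777 to 19506462 estimated counts in AEW and 18449145 to 18522816 in vehicle, and Spp1, the least counted of the 8, still had at least 103 in every library.

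The tissue carried the markers of skin with underlying muscle. The 6 basal keratinocyte markers summed to 11095 to 11488 TPM (a level scaled for gene length and for the library's total) in AEW and 5917 to 9669 TPM in vehicle. The 8 skeletal muscle markers summed to 12141 to 16643 TPM in AEW and 29439 to 41200 TPM in vehicle. None of the 8 had a positive log2 fold change, and 7 were called lower. For markers, higher and lower mean called at an adjusted p under 0.05 in edgeR's test, as were 4.85% and 6.8% of all tested genes. The 7 fibroblast markers summed to 4030 to 4658 TPM in AEW and 4394 to 6198 TPM in vehicle, with 1 of them, Pdgfra, higher (not with the mouse as a block). Only 3 of the 7 had a positive log2 fold change, and the median of the 7 was -0.25. At an unadjusted p under 0.05, edgeR named 1 fibroblast marker higher and 1 lower. Among the remaining lists, 1 of 6 suprabasal keratinocyte markers was higher, 1 of 5 adipocyte and 1 of 3 tested T cell markers were lower (neither with the mouse as a block), and none of 5 mast cell, 5 Schwann cell and 4 tested tenocyte, cartilage and bone markers passed. In whole tissue, fewer cells of a type and less RNA per cell cannot be told apart. One library stood apart. The chi-square per degree of freedom over tested genes was 71.5 and 59.8 between AEW replicate 1 and the other AEW libraries, against 19.8 to 27.5 among vehicle libraries and 20.4 between AEW replicates 2 and 3. Replicate numbers are the mouse numbers of the sample titles, and the deposited column names number the same mice 2, 3 and 4.

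Below are the 250 bases before an annotated start of Tnc, the one member that passed the edgeR test below, of Tnxb, the other tenascin, and of Postn. They are from the RefSeq table of build GRCm38.p6, 5′ to 3′, and are shown to place the genes, since the deposited values do not measure these regions. Capitals mark matches to TATAA, the core of a TATA box, or to TGANTCA, the core bound by AP-1 factors, searched on both strands.
Tnc (chr4:64046937-64047186, minus strand): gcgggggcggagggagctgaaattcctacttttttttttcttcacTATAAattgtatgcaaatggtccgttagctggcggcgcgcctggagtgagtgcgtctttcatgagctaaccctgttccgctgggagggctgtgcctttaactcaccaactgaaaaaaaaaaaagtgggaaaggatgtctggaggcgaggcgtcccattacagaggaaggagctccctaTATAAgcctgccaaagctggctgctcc
Tnxb (chr17:34670285-34670534, plus strand): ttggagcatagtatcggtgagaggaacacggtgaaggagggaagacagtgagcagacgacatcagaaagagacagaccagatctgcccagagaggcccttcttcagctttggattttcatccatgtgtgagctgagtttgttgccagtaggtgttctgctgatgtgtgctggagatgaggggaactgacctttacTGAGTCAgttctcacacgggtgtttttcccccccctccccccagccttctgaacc
Postn (chr3:54360857-54361106, plus strand): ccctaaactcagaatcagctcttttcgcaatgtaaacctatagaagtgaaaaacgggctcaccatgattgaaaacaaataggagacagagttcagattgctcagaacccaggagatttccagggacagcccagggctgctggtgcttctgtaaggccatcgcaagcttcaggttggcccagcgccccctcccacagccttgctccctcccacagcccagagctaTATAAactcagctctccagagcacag

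The Tnc stretch holds TATAA with its first base 27 bases before the start, and again at 205 bases, while Postn holds it at 26 bases. The stretches of the other annotated starts, not shown, differ. That of Tnc holds TATAA at 126 bases only, and that of Postn holds 0. The Tnxb stretch holds TGAGTCA at 55 bases and no TATAA. The table has 9 such stretches for 6 of the 8 genes, since Tnc, Postn and Spp1 have more than 1 annotated start. TATAA was found in 6 of the 9 and in 22.8% of all 32851 stretches of the same length, and TGANTCA in 1 of the 9 and in 6.75% of all. The Tnc stretches overlap and share a TATAA match, so the 9 are not independent. A match of letters describes the stretch only.

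Of the 8 genes, 1 rose in AEW skin, Tnc, and 0 fell at an adjusted p under 0.05 in edgeR's quasi-likelihood test, against 11.6% of all tested genes called in either direction, 4.85% higher and 6.8% lower. At an unadjusted threshold of 0.05, edgeR named 1 further member, Tnxb, in the lower direction, and DESeq2 called that gene lower. The median log2 fold change of the 8 genes was 0.0080, beside 0.014 over all tested genes, and 4 of the 8 had a positive value, beside 7790 of 15109. With the mouse as a block, Tnc was again the one member called, where 5.88% of all genes were. The scaled counts (CPM, normalised for library size but not for gene length) of AEW and vehicle libraries did not overlap for 2 of the 8. Tnc was above, as were 17.4% of all tested genes, and Tnxb below, as were 19.5%, or 36.9% in either direction. The share of members called, 12.5%, is thus near that of genes in general.

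**Figure D1:**
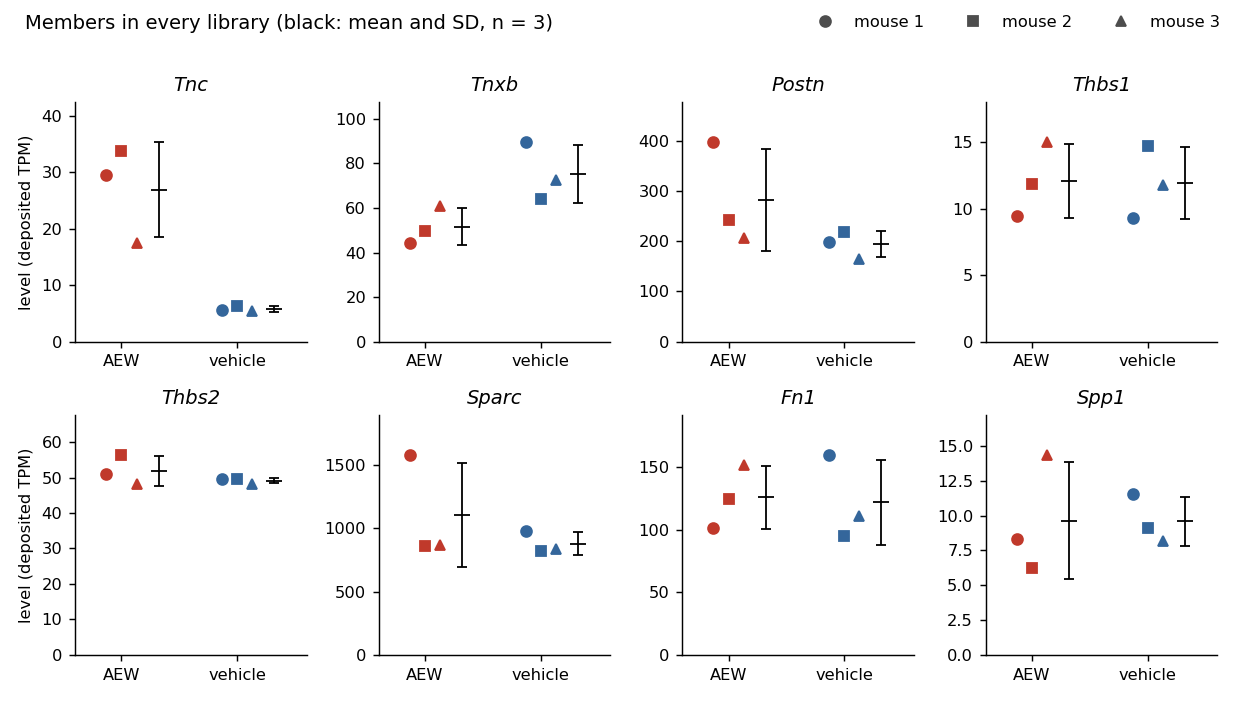
Level of each gene in deposited TPM (vertical axis, from 0) in the AEW and vehicle libraries, with symbols for mouse 1, 2 and 3 and black bars for the mean and SD (n = 3). Tnc lies at 17.5 TPM or more in AEW and at 6.39 TPM or less in vehicle, and Tnxb is the other gene whose groups do not overlap, with AEW below vehicle.

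Tnc (gene 21923) encodes tenascin C, a large glycoprotein that loosens the attachment of cells to fibronectin and is deposited in healing dermis. Its level was 29.45, 33.75 and 17.51 TPM in AEW replicates 1 to 3, and 5.54, 6.39 and 5.44 TPM in vehicle replicates 1 to 3. Every AEW library lay above every vehicle library, and the AEW library of mouse 3 was the lowest of its group. The estimated counts behind these levels were 1182 to 2480 in AEW and 352 to 420 in vehicle. Tnc averaged 97.3 ± 34.7 CPM in AEW and 20.9 ± 1.63 CPM in vehicle (SD, n = 3 each), so the AEW libraries also spread more, with a coefficient of variation of 35.6% against 7.80%. The log2 fold change was 2.22 ± 0.26 (SE), a 4.67-fold rise with a 95% interval from 3.03 to 7.18 fold (adjusted p = 0.0089, edgeR). Within mice 1, 2 and 3 the AEW to vehicle ratio of Tnc was 4.96, 5.74 and 3.12.

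The rise of Tnc kept its size without AEW replicate 1, at a log2 fold change of 2.19 (adjusted p = 0.00857). It missed the threshold narrowly without vehicle replicate 1 (log2 fold change 2.20, adjusted p = 0.0506) and without vehicle replicate 3 (2.18, adjusted p = 0.0526). In those edgeR fits 1.19% and 0.916% of all genes were called, so calls fell throughout. Over all 16 other settings the log2 fold change of Tnc ran from 1.96 to 2.47. The 6 basal keratinocyte markers included 1 higher gene, and 4 of the 6 had a positive log2 fold change. At an unadjusted threshold of 0.05 edgeR named 2 of the 6 higher and 1 lower, and DESeq2 called 1 higher and 1 lower. All 3 tested neutrophil markers were higher, 1 of them with the mouse as a block. Ly6g and Retnlg, also listed for neutrophils, did not pass the low-count filter. The 5 listed neutrophil markers summed to 29.5 to 182 TPM in AEW and 7.83 to 16.6 TPM in vehicle. The part of these cell types in the Tnc result was not tested.

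The tested genes most like Tnc across the 6 libraries were Cpxm1, Tubb3 and Has3. Likeness was the root mean square difference between log2 CPM profiles, each centred on its own mean, and it was 0.24, 0.27 and 0.27 for these genes among 13297 candidates. Cpxm1 encodes a carboxypeptidase-like secreted protein, Tubb3 a tubulin best known from neurons, and Has3 a synthase of hyaluronan, a matrix polysaccharide. Their log2 fold changes were 1.95, 2.20 and 2.01. Values near that of Tnc follow from picking genes by their profile over the same 6 libraries. No other member came close to Tnc on this measure, the nearest being Postn at 0.92.

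Tnxb (gene 81877) encodes tenascin XB, which binds collagen fibrils in the dermis, and whose loss in people causes a form of Ehlers-Danlos syndrome with stretchable skin. Its level was 44.21, 49.75 and 60.65 TPM in AEW replicates 1 to 3, and 89.53, 63.90 and 72.30 TPM in vehicle replicates 1 to 3. All AEW libraries lay below all vehicle libraries, though the highest AEW and the lowest vehicle library differed little. This corresponds to a log2 fold change of -0.55 ± 0.20 (SE), with a 95% interval from -1.02 to -0.079, and it did not pass the test over all genes (adjusted p = 0.116, edgeR). DESeq2, which called 19% of all genes, gave an adjusted p of 0.0412. Mouse 1 had an AEW to vehicle ratio of 0.437, and mice 2 and 3 had 0.868 and 0.841. In the blocked fit on mice 2 and 3 alone, Tnxb had a log2 fold change of -0.23 (adjusted p = 0.132, edgeR).

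The ratio of the tenascins within a library does not depend on scaling between libraries. Tnc stood at 0.666, 0.678 and 0.289 of the Tnxb level in AEW replicates 1 to 3, and at 0.0619, 0.1 and 0.0752 in vehicle replicates 1 to 3 (ratios of TPM). Every AEW ratio was above every vehicle ratio. The genes most like Tnxb were Irf1, an interferon response factor, Galnt16, a glycosyltransferase gene, and Rasa4, a Ras GTPase activator, with root mean square differences of 0.044, 0.060 and 0.061 on the log2 scale. Their log2 fold changes were -0.54, -0.59 and -0.48, and none of the 3 passed the test (lowest adjusted p = 0.102, edgeR). Here too, likeness to Tnxb in these values follows from the way the genes were picked.

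**Figure D2:**
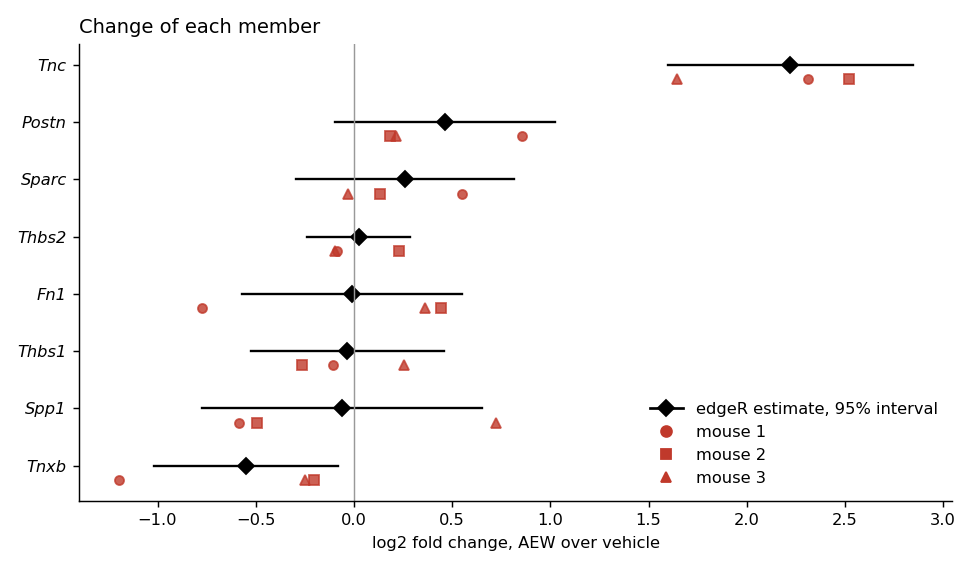
Log2 fold change of each gene, AEW over vehicle, as estimated by edgeR with its 95% interval (black) and as the CPM ratio within each mouse (red symbols). The interval of Tnc starts at 1.6, the intervals of Postn, Sparc, Thbs2, Fn1, Thbs1 and Spp1 cross 0, and the mice disagree in sign for Sparc, Thbs2, Fn1, Thbs1 and Spp1.

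Postn and Sparc varied together and took their high values from one library. Postn (gene 50706) encodes periostin, an integrin ligand that promotes collagen cross-linking and is induced by type 2 cytokines in allergic skin. Its level was 397.21, 241.67 and 205.64 TPM in AEW replicates 1 to 3, and 199.14, 218.01 and 165.45 TPM in vehicle replicates 1 to 3. AEW replicate 1 was far above all others, and the remaining AEW and vehicle libraries overlapped. Its log2 fold change was 0.46 ± 0.24 (SE, adjusted p = 0.235, edgeR), and 0.16 (adjusted p = 0.524) without AEW replicate 1.

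Sparc (gene 20692) encodes a collagen-binding protein that fibroblasts need for the assembly of collagen fibrils. Its level was 1577.28, 864.00 and 866.49 TPM in AEW replicates 1 to 3, and 981.96, 820.16 and 834.99 TPM in vehicle replicates 1 to 3. Here too AEW replicate 1 was the highest library, and AEW replicates 2 and 3 lay within the vehicle range. For Sparc it was 0.26 ± 0.24 (SE, adjusted p = 0.491, edgeR), and it turned to -0.061 without AEW replicate 1 (adjusted p = 0.787). Postn and Sparc were the most alike of all 28 pairs of members, with a root mean square difference of 0.18 on the log2 scale.

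The gene most like Postn among all candidates was Col3a1, the fibrillar collagen III gene, at a root mean square difference of 0.061, followed by Ppic, a prolyl isomerase, and Cenps, a kinetochore gene, at 0.071 and 0.074. Of the 21 tested genes for transforming growth factor beta and matrix assembly, 14 had their highest CPM in AEW replicate 1, or 66.7%, beside 26.5% of all tested genes. No gene of that list rose or fell in the edgeR test, beside 11.6% of all tested genes called, or by DESeq2, beside 19%. At an unadjusted threshold of 0.05, edgeR named 2 higher and 1 lower. The list's median log2 fold change was 0.12, beside 0.014 over all tested genes. Without AEW replicate 3, 1 gene of it was lower, and the blocked fit on mice 2 and 3 alone, with 23.1% of all genes called, had 3 higher and 2 lower. Its most abundant genes were Col3a1 and Col1a2, a chain of collagen I. Col3a1 stood at 1090, 659 and 548 TPM in AEW replicates 1 to 3, and at 548, 534 and 451 TPM in vehicle replicates 1 to 3. Col1a2 stood at 882, 387 and 391 TPM in AEW, and at 368, 350 and 281 TPM in vehicle. The library with high Postn and Sparc also had the most Col3a1 and Col1a2 transcript. Without that library the differences of Postn and Sparc were small, as given above. The same library had the lowest sum of the 7 fibroblast markers, 4030 TPM, although Col1a2 is 1 of those markers. The part of fibroblasts in these values was not tested.

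**Figure D3:**
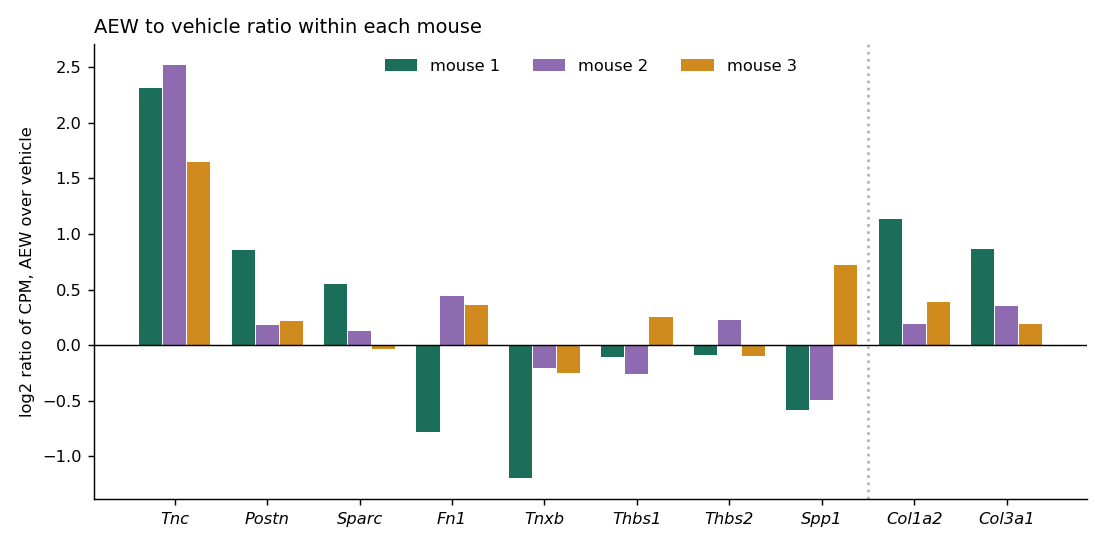
Log2 ratio of CPM in AEW over vehicle within each mouse, as bars from 0, for the 8 genes and, right of the dotted line, for Col1a2 and Col3a1. Tnc is above 1.6 in each mouse, whereas mouse 1 gives the largest positive bars of Postn, Sparc and both collagens and the lowest bars of Fn1 and Tnxb.

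Fn1 (gene 14268) encodes fibronectin, a glycoprotein that cells assemble into fibrils as a provisional matrix. Its level was 101.52, 124.75 and 151.53 TPM in AEW replicates 1 to 3, and 159.46, 95.01 and 110.75 TPM in vehicle replicates 1 to 3. The groups overlapped fully, and mouse 1 ran against the others. The AEW to vehicle ratio was 0.584 in mouse 1, and 1.36 and 1.29 in mice 2 and 3. The log2 fold change was -0.0084 ± 0.24 (SE), with a 95% interval from -0.57 to 0.55 (adjusted p = 0.985, edgeR), an interval that allows a change of up to 1.47 fold upward.

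In a blocked fit on mice 2 and 3 alone, Fn1 stood 0.40 ± 0.09 (SE) higher in AEW on the log2 scale, with an adjusted p of 0.027 in edgeR. That fit called 23.1% of all genes. It leaves out mouse 1, which ran against the others, so the direction of Fn1 in it follows from that choice. With mouse 2 or mouse 3 left out instead, the blocked log2 fold change of Fn1 was -0.21 and -0.17. The 6 macrophage markers split between mice as Fn1 did, with a median log2 ratio of -0.95 in mouse 1, 1.15 in mouse 2 and 1.05 in mouse 3. Their summed level was 340, 731 and 606 TPM in AEW replicates 1 to 3, and 607, 337 and 277 TPM in vehicle replicates 1 to 3. With all 3 mice none of the 6 passed the test, with or without the block. In the blocked fit on mice 2 and 3 alone all 6 were higher, a direction that again follows from leaving out mouse 1. With mouse 2 or mouse 3 left out instead, 0 of the 6 were called. None of them was at 0. Fibroblast markers had medians of the same signs, at -0.95, 0.18 and 0.19 in mice 1, 2 and 3. So had suprabasal keratinocyte markers, at -0.16, 0.39 and 0.49, and no other marker list. The part of these 3 lists in the Fn1 values was not tested.

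Neither thrombospondin passed the test. Thbs1 (gene 21825) encodes thrombospondin 1, which activates latent transforming growth factor beta and restrains vessel growth through CD36 and CD47. Its level was 9.45, 11.86 and 14.99 TPM in AEW replicates 1 to 3, and 9.32, 14.70 and 11.79 TPM in vehicle replicates 1 to 3. The groups overlapped throughout, and the log2 fold change was -0.034 ± 0.21 (SE, adjusted p = 0.930, edgeR) with a 95% interval from -0.53 to 0.46.

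Thbs2 (gene 21826) encodes thrombospondin 2, whose loss in mice leads to abnormal collagen fibrils in skin. It stood at 51.12, 56.29 and 48.15 TPM in AEW replicates 1 to 3, and at 49.54, 49.62 and 48.22 TPM in vehicle replicates 1 to 3. It was the steadiest of the 8 genes, with a coefficient of variation of 12.8% in AEW and 2.34% in vehicle. Its log2 fold change was 0.024 ± 0.11 (SE, adjusted p = 0.903, edgeR), and its interval, from -0.24 to 0.29, was the narrowest of the 8. A change of more than 1.22 fold upward therefore lay outside the interval. The ratio of Thbs1 to Thbs2 was 0.185, 0.211 and 0.311 in AEW, and 0.188, 0.296 and 0.245 in vehicle.

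Spp1 (gene 20750) encodes osteopontin, an integrin and CD44 ligand made by macrophages, T cells and epithelia. Its level was 8.35, 6.25 and 14.33 TPM in AEW replicates 1 to 3, and 11.54, 9.09 and 8.16 TPM in vehicle replicates 1 to 3. The AEW libraries held both the lowest and the highest value. The AEW to vehicle ratio was 0.666, 0.710 and 1.65 in mice 1, 2 and 3. The log2 fold change was -0.061 ± 0.30 (SE, adjusted p = 0.910, edgeR), and its 95% interval from -0.77 to 0.65 was the widest of the 8, so that changes of up to 1.57 fold upward or to 0.585 of the vehicle level could not be told from none. Spp1 stood at 0.0822, 0.0501 and 0.0946 of the Fn1 level in AEW, and at 0.0724, 0.0957 and 0.0737 in vehicle (ratios of TPM).

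The order of levels per length was led by Sparc in both groups. The 8 genes summed to 1379 to 2219 TPM in AEW and 1257 to 1506 TPM in vehicle, and Sparc made up 66.3% of the AEW mean and 65.3% of the vehicle mean. In AEW the order was Sparc, Postn, Fn1, Thbs2, Tnxb, Tnc, Thbs1 and Spp1, with means of 1103, 282, 126, 51.9, 51.5, 26.9, 12.1 and 9.64 TPM. In vehicle it was Sparc, Postn, Fn1, Tnxb, Thbs2, Thbs1, Spp1 and Tnc, with means of 879, 194, 122, 75.2, 49.1, 11.9, 9.60 and 5.79 TPM. The library ranges of Thbs2 and Tnxb overlapped in AEW, as did those of Thbs1 and Spp1 in both groups, and the other neighbours were apart in every library. Tnc was thus sixth in AEW and eighth, the least abundant, in vehicle.

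Among other genes of the same families, 0 of 19 tested genes rose and 4 fell, beside 6.8% of all tested genes lower. The fallen genes were Thbs4, Smoc2, Sparcl1 and Spock2, and all 4 also fell with the mouse as a block. The median log2 fold change of the 19 was -0.50, beside 0.014 over all tested genes, and 3 of the 19 had a positive value. At an unadjusted threshold of 0.05 edgeR named 1 of the 19 higher, Spock1, and DESeq2 named 0 higher after adjustment. Of the 21 listed genes, Spock3 and Ibsp did not pass the low-count filter, and Ibsp, bone sialoprotein, was listed at 0 TPM in all libraries.

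Thbs4 encodes a thrombospondin of tendon and muscle attachments. It stood at 25.72, 23.55 and 24.60 TPM in AEW replicates 1 to 3, and at 44.79, 36.63 and 47.91 TPM in vehicle replicates 1 to 3 (log2 fold change -0.87 ± 0.12, SE, adjusted p = 0.0122, edgeR). Sparcl1, a relative of Sparc made by vessels and nerve, stood at 105.31, 104.39 and 105.97 TPM in AEW, and at 154.08, 146.08 and 160.66 TPM in vehicle. The log2 fold change of Sparcl1 was -0.60 ± 0.09 (SE, adjusted p = 0.0145, edgeR), beside 0.26 for Sparc.

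Smoc2, a secreted calcium-binding relative of Sparc, stood at 36.8 ± 4.86 TPM in AEW and 64.5 ± 9.5 TPM in vehicle (SD, n = 3 each), a log2 fold change of -0.87 ± 0.13 (SE). Spock2, a testican proteoglycan, stood at 10.9 ± 2.32 TPM in AEW and 20.0 ± 3.08 TPM in vehicle, a log2 fold change of -0.95 ± 0.17 (SE). None of these 4 genes, named because they were called, overlapped between groups. Of all tested genes 19.5% lay lower in AEW without overlap in CPM. Without AEW replicate 2 Spock2 missed the threshold (adjusted p = 0.0569, edgeR). Without vehicle replicate 3 none of the 4 was called, and without vehicle replicate 1 Smoc2 alone was, with log2 fold changes of the 4 between -0.95 and -0.57 in those fits. The most abundant genes of the list were Tgfbi and Fstl1, with log2 fold changes of -0.27 and -0.10 (adjusted p = 0.406 and 0.780, edgeR).

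Markers of muscle, vessels and mural cells were also among the genes called lower. Of the 8 muscle markers 7 were lower (median log2 fold change -1.37), of the 5 endothelial markers 2, and of the 6 pericyte and smooth muscle markers 2. Of all tested genes 6.8% were lower. With the mouse as a block these counts were 7, 1 and 2. At an unadjusted threshold of 0.05 edgeR named 8, 5 and 4 lower, and DESeq2, which called 19% of all genes, called 8, 5 and 3 lower. Of the mural cell markers 2 had a positive log2 fold change, and 0 of the muscle and endothelial markers did. Endothelial markers summed to 116 to 131 TPM in AEW and 153 to 197 TPM in vehicle, and mural cell markers to 535 to 703 TPM in AEW and 1055 to 1359 TPM in vehicle. Markers of none of these types were at 0 in any library. Of the 5 Schwann cell markers, edgeR and DESeq2 called 0, and 3 were lower at the unadjusted threshold in edgeR. The part of all these cell types in the falls of Thbs4, Sparcl1, Smoc2 and Spock2 was not tested.

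**Figure D4:**
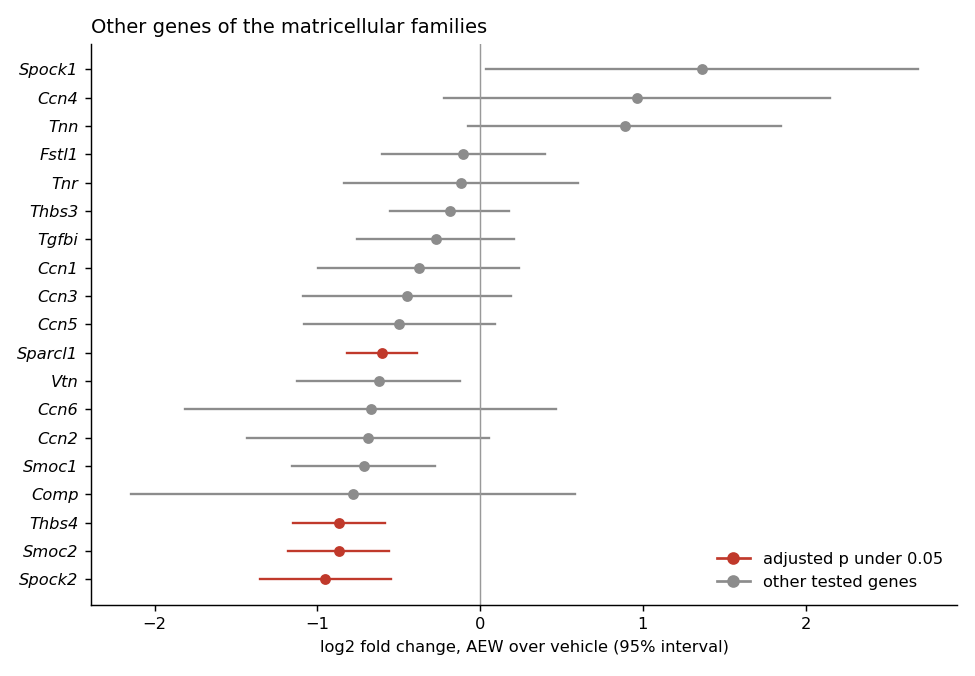
Log2 fold change, AEW over vehicle, with its 95% interval from edgeR for the 19 tested further genes of the matricellular families, in red where the adjusted p was under 0.05. Spock2, Smoc2, Thbs4 and Sparcl1 lie between -0.95 and -0.60, and Spock1, Ccn4 and Tnn are the 3 genes with a positive estimate.

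Of 19 tested receptors and surface partners of these proteins, 1 rose and 0 fell, beside 11.6% of all tested genes called, with a median log2 fold change of 0.053. At an unadjusted threshold of 0.05 edgeR named 1 lower, Itga9, and DESeq2 also named 1 lower after adjustment. The gene that rose was Cd44, a receptor of hyaluronan and osteopontin. It stood at 83.09, 62.75 and 56.85 TPM in AEW replicates 1 to 3, and at 36.89, 48.59 and 34.34 TPM in vehicle replicates 1 to 3, which edgeR estimated as a log2 rise of 0.75 ± 0.17 (SE; adjusted p = 0.0352). The groups did not overlap, and 17.4% of all tested genes likewise lay higher in AEW without overlap in CPM. With the mouse as a block the adjusted p of Cd44 was 0.0502, and without AEW replicate 2, vehicle replicate 1 or vehicle replicate 3 it was 0.0899, 0.123 and 0.150. The most abundant genes of the list were Cd36, a thrombospondin receptor, and Sdc1, a heparan sulfate proteoglycan of keratinocytes. Cd36 had a log2 fold change of -0.061 (adjusted p = 0.881) and Sdc1 of 0.40 (adjusted p = 0.130, edgeR). In the blocked fit on mice 2 and 3 alone, 4 of the 19 were higher, beside 1922 of the 15163 genes tested in that fit. With all 3 mice and no block, the integrin chains of the list, with 10 tested genes, held no called gene.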

How the data were processed

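Poly(A)-selected RNA of 6 cheek skin libraries was sequenced in single-end reads of 50 bases on the DNBSeq platform, per the labels' protocols. The authors deposited estimated counts, FPKM and TPM values for 19309 genes, per the file headers, with 53.9% to 57.2% of the estimated counts of a library not whole (tolerance 0.001). The deposited FPKM values were not used. The submitters' processing notes name HISAT and GRCm39 (counter, annotation, strand setting: not given in the sources used here). Reads that 4 members share in exons with other genes of GENCODE M21 (Fn1, Spp1, Thbs1 and Tnxb) cannot be told apart. None of these partners is in the deposited table under the same symbol.

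Estimated counts were rounded, filtered with filterByExpr (minimum count 10), scaled by TMM (factors 0.973 to 1.05) and tested with edgeR 4.0.16 in R 4.3.3 by the quasi-likelihood test with group as the single term. Benjamini-Hochberg adjustment ran over 15109 genes, with a threshold of 0.05. A standard error is the log2 fold change divided by the square root of F. Levels are TMM-scaled CPM or deposited TPM, and genes are compared with each other on TPM only. DESeq2 1.42.0 and limma 3.58.1 on log2(TPM + 0.1) and log2(TPM + 1) were alternatives.

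Both cheeks of a mouse share a number in the labels, so numbers pair the libraries. Deviations from group means correlated at -0.244, -0.165 and -0.246 within mice across genes. The fit with the mouse as a block called 888 genes (5.88%), against 1760. Counts of 14949 genes were simulated as independent libraries, with 66 or 67 genes changed at each fold. The recovery was 23.9% at 1.5 fold, 74.6% at 2 fold and 95.5% at 4 fold, and 10 of 139 calls were false.

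The 8 genes, the 3 lists of related genes and the 13 marker lists were chosen with earlier results of these data known. Beyond the 8, the text names from each related list up to 4 called genes by smallest p and the 2 highest by mean TPM, and for Tnc, Tnxb and Postn the 3 most alike genes. Pdgfra, and further genes shown where a count or figure needs them, were chosen after their values were seen.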

Additional observations from a re-analysis of the deposited data

How the results depend on the processing

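Tnc kept its direction in all 16 alternatives, with adjusted p from 4.11e-15 to 0.219. It missed the threshold without vehicle replicate 1 or 3 and with the replicate block without mouse 3, where 0 genes were called in either direction. The replicate block gave a log2 fold change of 2.16 for Tnc and changed no other call among the 8 genes. Members called higher ranged from 0 to 1 when 1 library was left out (0 lower), and were 2, 1 and 0 with the block and without mouse 1, 2 or 3. DESeq2 called 1 member lower, Tnxb.

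Genes called higher were 733, and 300 with the replicate block and 1362 with DESeq2. They ranged from 23 to 1197 when 1 library was left out and were 1922, 112 and 0 with the block and without mouse 1, 2 or 3. Genes called lower were 1027, and 588 with the block, 1511 with DESeq2 and 666 with either TPM setting. They ranged from 117 to 1041 when 1 library was left out and were 1588, 279 and 0 without mouse 1, 2 or 3.

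The sign of uncalled values turned as follows, and the cause was not tested. Leaving out 1 library at a time, log2 fold changes ran from -0.17 to 0.25 for Fn1, -0.44 to 0.14 for Spp1, -0.19 to 0.13 for Thbs1, -0.084 to 0.093 for Thbs2, -0.061 to 0.42 for Sparc, -0.26 to 0.11 for Cd36 and -0.34 to 0.057 for Fstl1. Fn1 was also 0.015 with the block, 0.022 without TMM factors, 0.065 and 0.064 on TPM, and 0.40 with the block without mouse 1. Thbs1 was 0.019 and 0.017 on TPM and 0.073 with the block without mouse 2. With the block, Spp1 was 0.13 and 0.069 without mouse 1 and 2, Thbs2 was -0.090 without mouse 2, and Cd36 was 0.26 without mouse 1. The block ended the call of Cd44 (adjusted p = 0.0502) and of no other gene named as called in the 3 related lists. Among marker lists it ended 1 of 2 endothelial, 2 of 3 neutrophil and the single adipocyte, T cell and fibroblast calls.

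In the simulation, with 3 libraries per group, changes of 1.5 fold were mostly missed. It changed 66 or 67 genes per fold size, whereas 1760 genes were called here, and it drew independent libraries without mouse pairing. It therefore does not give the rate of detection in these data, where small changes can still have gone uncalled. Spp1 has the fewest counts of the 8.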
